A study of Mus musculus with 12 samples.

Results

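The genes described here encode the soluble hydrolases of the lysosome, cathepsins left out, together with the proteins that activate these enzymes or route them to the lysosome. The set was fixed as a list of 39 symbols. A gene was measured where an array feature carried its symbol and no other, and where several did the feature with the highest mean over all arrays was taken. By this rule 38 of the 39 genes were measured, among 30701 genes with a feature of their own. Glb1, encoding beta-galactosidase, shares its only feature with Tmppe and is not analysed here. Arsb alone had a second feature. The arrays came from livers of 12 C57BL6/J mice aged 12 weeks, 1 array per mouse. Of these, 6 carried the genotype ENT3 +/+ (WT) and 6 were ENT3 -/- knockouts (KO); no treatment is named for either. Each genotype held 3 mice with the title letter M and 3 with F, read here as male and female because the groups are described as gender matched. ENT3 is a nucleoside transporter of lysosomal and mitochondrial membranes, encoded by Slc29a3. The labels give neither the deleted part of the gene nor whether the deletion is limited to some cell types.

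Lysosomal hydrolases are made at the endoplasmic reticulum and cut polysaccharides, lipids, proteins, phosphate esters and DNA at acid pH. Most of them receive a mannose-6-phosphate tag in the Golgi, are bound there by mannose-6-phosphate receptors and are released in the acid endosome. In liver they serve hepatocytes as well as Kupffer cells, the resident macrophages, which take up and degrade blood-borne particles and spent red cells. Many of the genes carry a DNA element named CLEAR in their promoters, which is bound by TFEB and related factors.

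The core of that element is the hexamer CACGTG, which reads the same on both strands and was the only motif searched. RefSeq promoters of the GRCm38.p6 assembly, from 250 bases before to 50 bases after a transcription start, were present for 33 of the 39 genes in 41 windows; those without an entry were Aga, Asah1, Galns, Hgsnat, M6pr and Plbd2. The hexamer occurred at 13 places in the windows of 10 genes: Arsa, Gaa, Gla, Glb1, Igf2r, Lgmn, Naglu, Nagpa, Sgsh and Sumf1. That is 30.3% of the 33 genes, against 8.91% of the 17492 protein-coding genes with a promoter entry. It was found in 1 of the 2 genes with an entry that were higher in KO livers (Lgmn), in 1 of the 7 that were lower (Naglu) and in 7 of the 23 measured genes with no call. A match to the hexamer is a description of the letters and not of a bound site. The windows of both genes that carry it and passed the test, and of 3 genes that lay nearer to the threshold than most, read as follows, 5′ to 3′ on the gene's strand with the hexamer in capitals.
Lgmn (chr12:102439124-102439153, minus strand): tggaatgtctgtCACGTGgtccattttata
Naglu (chr11:101070009-101070038, plus strand): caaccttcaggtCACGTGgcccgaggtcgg
Arsa (chr15:89477423-89477452, minus strand): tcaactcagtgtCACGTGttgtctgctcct
Nagpa (chr16:5204005-5204034, minus strand): ctggcctggaatCACGTGgggcgagcccac
Igf2r (chr17:12769737-12769766, minus strand): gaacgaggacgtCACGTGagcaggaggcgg
The hexamer began 49 bases before the start in Lgmn, where it belongs to the more downstream of 2 annotated starts, 73 bases before it in Naglu and 48 bases before it in Igf2r. In Arsa and Nagpa it began 16 and 10 bases before the start. Nagpa and Igf2r each held a second copy.

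Values are log2 signals as deposited. A difference is the KO level minus the WT level, given ± its standard error (SE) from a limma fit to all 12 arrays. A difference is called where its adjusted p (Benjamini-Hochberg over all 65956 transcript features) was under 0.05. The targeted gene was lower in the KO livers, at 4.13 ± 0.04 (SD, n = 6) against 5.07 ± 0.18 (SD, n = 6) for Slc29a3 in WT, with both genotypes inside the range of the negative control features. The upper edge of that range, their 95th percentile, lay between 6.20 and 6.83 on the 12 arrays. Hepatocyte markers averaged between 17.84 and 18.24 on all arrays. Most of the 12 measured sat at the highest value an array can give in both genotypes. They could not be called, and they hold the average level, so neither shows whether hepatocyte content differed. Clear of that value, Asgr1 was called, lower by -0.84. Hnf4a and Apoc3, named here after their values were seen, differed by -0.46 and -0.03 without a call. The arrays also differed in their controls: the mean signal of the poly-A spikes, bacterial transcripts put in ahead of the labelling step, was 5.44 ± 0.36 (SD, n = 6) for KO arrays against 6.30 ± 0.32 (SD, n = 6) for WT arrays (exact permutation within letter, two-sided p = 0.005, the smallest that 400 arrangements allow, adjusted p = 0.0125 over 5 array measures). By the same permutation the median of the positive controls was lower on KO arrays by -0.39 (adjusted p = 0.0167). The median of the negative controls was higher by 0.14 (adjusted p = 0.0125) and that of the transcript features by 0.07 (adjusted p = 0.0188). Hybridisation spikes differed by -0.09 (adjusted p = 0.395). The part of the positive control shift in the gene differences was not tested. WT females 25 and 27 carried pancreatic acinar transcripts. Their averages over 5 such genes were 10.87 and 9.05, against 3.89 to 4.07 on the other 10 arrays. Each gene whose call changes when those 2 arrays are left out is given with and without them.

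Of the 38 genes, 10 were called between genotypes, 3 higher and 7 lower in KO. The 3 higher genes were Lgmn (legumain, an endopeptidase that cuts after asparagine), Acp5 (tartrate-resistant acid phosphatase) and Asah1 (acid ceramidase), with differences of 2.61, 1.34 and 1.27. The 7 lower genes were Tpp1 (tripeptidyl peptidase), Arsb and Ids (sulfatases of glycosaminoglycans), Acp2 (lysosomal acid phosphatase) and the glycosidases Naglu, Neu1 and Fuca1. Their differences lay between -1.15 for Tpp1 and -0.27 for Ids. The median over the 38 genes was -0.10, beside 0.02 over all protein-coding genes, and 24 of the 38 differences were negative.

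The 10 calls make up 26.3% of the genes measured. Over all transcript features 9.75% were called, and over protein-coding genes 15.7%, made up of 4.76% higher and 11.0% lower. Protein-coding genes whose mean lay above 6.50, the average upper edge of the negative controls, were called in 36.7% of cases, and of the 25 members above that level 7 were called. The hydrolase genes were thus not called more often than other genes of measurable signal. An unadjusted limma p under 0.05 was reached by 18 of the 38 genes and by 5997 of 19229 protein-coding genes. All 6 KO values lay above all 6 WT values for 2 genes (Lgmn and Asah1) and below them for 3 (Tpp1, Arsb and Naglu), and overlapped for the other 33. Of all 19229 protein-coding genes 7.82% had no overlap, but 13414 of them lay within the negative controls in all groups. The share without overlap among genes of measurable signal was not computed. When the spike level entered the fit as a covariate, 0 of the 38 were called by limma, and 3 of all features. The differences were then 3.61 ± 0.98 for Lgmn, 2.31 ± 0.50 for Acp5, 2.28 ± 0.55 for Asah1, -0.46 ± 0.28 for Tpp1, -0.49 ± 0.15 for Arsb, -0.35 ± 0.15 for Naglu and -0.43 ± 0.17 for Fuca1, each with a larger SE than without the covariate. Of the remaining called genes, Neu1 shrank to -0.16 ± 0.21 under the covariate and Ids changed sign. Acp2 kept its sign, with a limma adjusted p of up to 0.935 over all settings. The count fell to 6 when WT male 23, WT male 33, WT female 38 or KO female 69 was left out; Lgmn, Acp5, Asah1, Tpp1, Arsb and Naglu were called in each of the 12 fits that left out 1 mouse.

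**Figure D1:**
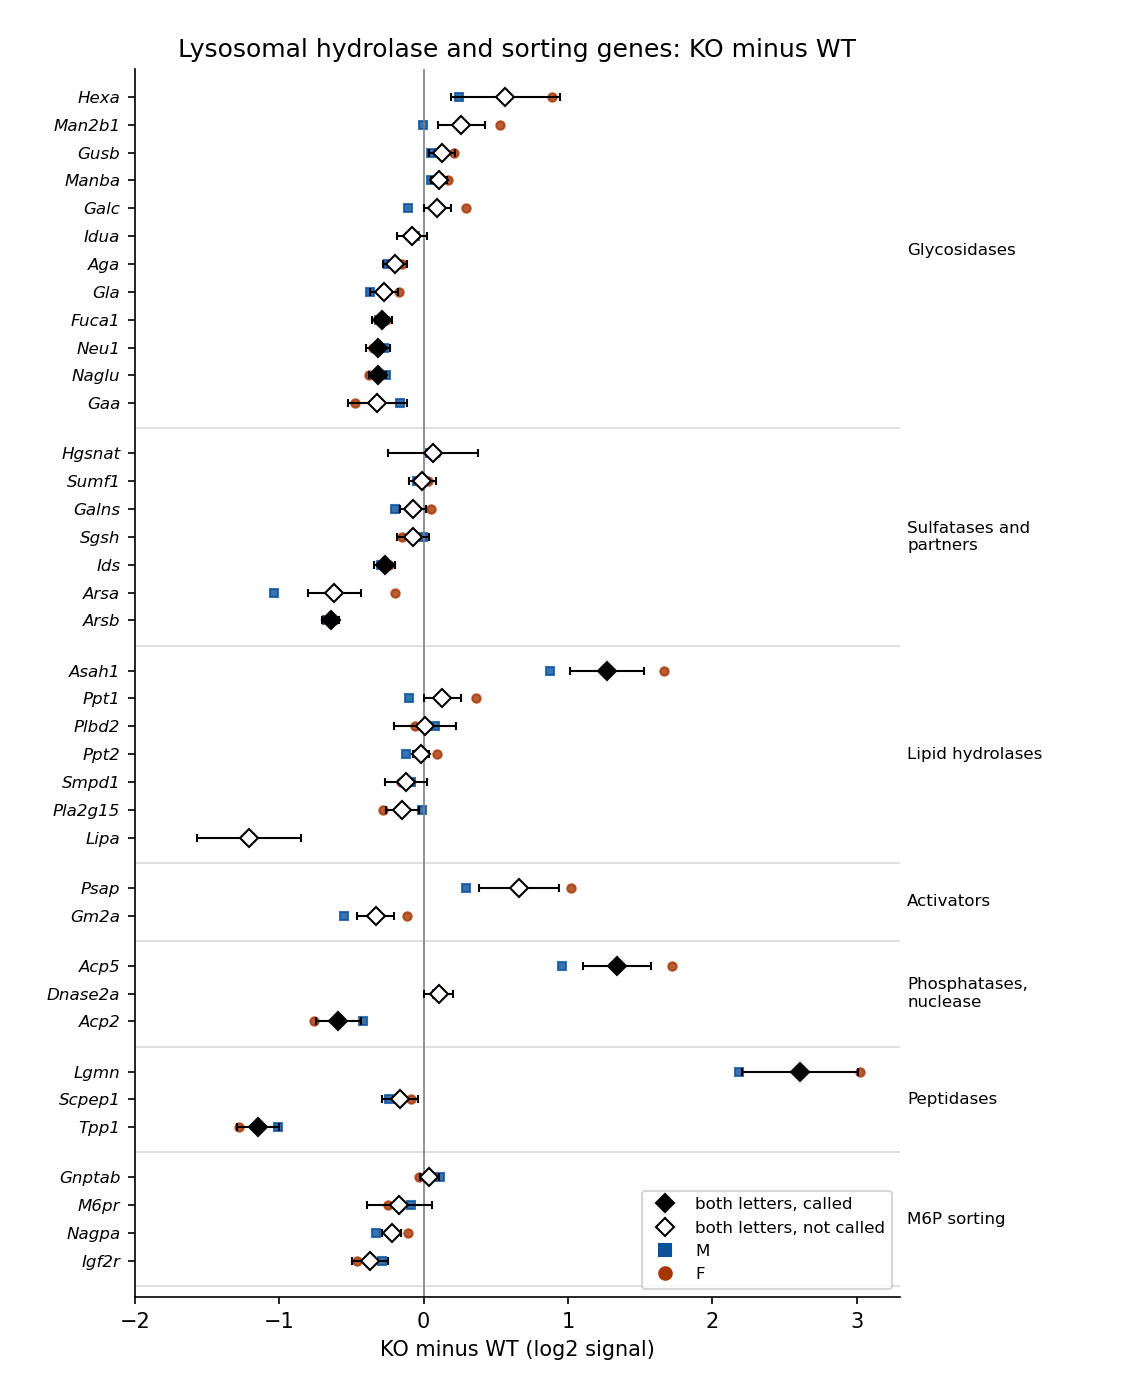
KO minus WT differences on the log2 scale for the 38 genes, grouped by role; diamonds with bars are the fit over both letters ± SE (6 mice per genotype), filled where called, and squares and circles the differences within M and F, hidden by the diamond where they coincide with it. Lgmn, Acp5 and Asah1 stand to the right of 0 by more than 1 unit, Tpp1 and Lipa to the left, and most of the others within 0.5 of 0.

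Glycosidases remove single sugars from the ends of glycans. Of the 12 measured, 0 were higher and 3 were lower, by -0.32, -0.31 and -0.29, and 5 had an unadjusted p under 0.05. Naglu, the enzyme that removes N-acetylglucosamine from heparan sulfate, measured 6.22, 6.23 and 6.45 in WT males and 6.07, 6.15 and 6.24 in WT females. It measured 6.01, 6.04 and 6.07 in KO males and 5.67, 5.80 and 5.86 in KO females. The KO values lay below the WT values in each letter, but the highest KO male and the lowest WT female were nearly equal. The difference was -0.32 ± 0.06 (limma adjusted p = 0.0082).

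Fuca1, the lysosomal alpha-fucosidase, measured 10.38, 10.47 and 10.59 in WT males, 10.16, 10.33 and 10.40 in WT females, 10.02, 10.23 and 10.26 in KO males and 9.95, 10.01 and 10.15 in KO females. Groups of the same letter did not overlap, although WT female 25 was nearly equal to the highest KO female. The difference was -0.29 ± 0.07 (limma adjusted p = 0.0282). Neu1, the sialidase, measured 6.17, 6.45 and 6.51 in WT males and 6.03, 6.14 and 6.21 in WT females. Its KO values were 6.01, 6.08 and 6.22 in males and 5.57, 5.87 and 5.90 in females, so that the males overlapped. The difference was -0.31 ± 0.08 (limma adjusted p = 0.0401). Neu1 lay within the negative control range in 3 of the 4 groups and Naglu in 2, so the sizes of these differences are not exact. Leaving out 1 mouse ended the call for Fuca1 in 7 of 12 fits (adjusted p 0.0209 to 0.0722) and for Neu1 in 9 of 12 (0.0223 to 0.0948). Without WT females 25 and 27 Fuca1 differed by -0.34 (adjusted p = 0.0528) and Neu1 by -0.32 (adjusted p = 0.135), and neither was called; nor was Fuca1 after quantile normalization.

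The other glycosidases were not called. Hexa, the alpha subunit of beta-hexosaminidase A, ranged from 9.71 to 12.12 in KO (median 9.99) and from 9.27 to 10.04 in WT (median 9.95), and its difference of 0.57 ± 0.38 (adjusted p = 0.422) rested on KO female 40, without which it was 0.20. Gaa, which degrades glycogen, differed by -0.32 ± 0.20, and Man2b1, the acid alpha-mannosidase, by 0.26 ± 0.16, with 0.53 in females and -0.01 in males. Aga, which splits the link between sugar and asparagine, differed by -0.20 ± 0.08 (adjusted p = 0.169), and Gusb, the beta-glucuronidase, by 0.13 ± 0.09. Gla (alpha-galactosidase A), Galc (galactosylceramidase), Idua (alpha-iduronidase) and Manba (beta-mannosidase) lay within the negative control range in all groups. Their differences of -0.27, 0.09, -0.08 and 0.11 therefore say little about these genes. Gla was called after quantile normalization (adjusted p = 0.0480) and without KO female 40 (0.0323).

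Sulfatases remove sulfate from glycosaminoglycans and sulfolipids and need activation by Sumf1. Of the 7 genes in this group 2 were lower and 0 were higher. Arsb, the sulfatase of dermatan and chondroitin sulfate, measured 7.70, 7.70 and 7.86 in WT males and 7.53, 7.62 and 7.74 in WT females. It measured 7.00, 7.11 and 7.15 in KO males and 6.90, 7.01 and 7.12 in KO females. The highest KO mouse lay well below the lowest WT mouse, and the spread inside each group was small. Arsb was lower by -0.64 ± 0.06 (1.56-fold lower in KO, limma adjusted p = 0.000575), the smallest p of the 38 genes. Its second feature, with a mean of 3.49, differed by 0.07 (adjusted p = 0.598), and the average of both features fell by 0.29 (adjusted p = 0.0107).

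Ids, the X-linked iduronate sulfatase, measured 5.87, 5.98 and 6.02 in WT males and 6.19, 6.36 and 6.48 in WT females, against 5.50, 5.64 and 5.84 in KO males and 6.04, 6.07 and 6.20 in KO females. Females were above males in both genotypes, and inside each letter the KO mice lay below the WT mice except that KO female 40 reached the level of WT female 27. The difference was -0.27 ± 0.07 (limma adjusted p = 0.0443), it was lost in 9 of the 12 fits that left out 1 mouse (adjusted p 0.0201 to 0.103), and 3 of the 4 groups lay within the negative control range. Without WT females 25 and 27 it was -0.28 and not called (adjusted p = 0.104).

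Arsa, which removes sulfate from sulfatide, did not pass the test at -0.62 ± 0.18 (adjusted p = 0.0622). WT males measured 6.09, 6.74 and 7.27 and KO males 5.51, 5.52 and 5.96, whereas WT females lay between 5.05 and 5.26 and KO females between 4.78 and 5.22. The difference was -1.04 in males (adjusted p = 0.101) and -0.20 in females (adjusted p = 0.727). The difference between letters had the smallest unadjusted p of the set, 0.0439, with an adjusted p of 0.735. All groups except WT males lay within the negative controls. Arsa was called after quantile normalization (-0.69, adjusted p = 0.0374), after median centring (-0.69, adjusted p = 0.0350) and without WT male 17 (-0.77, adjusted p = 0.0110). Hgsnat, the membrane enzyme that acetylates heparan sulfate, differed by 0.06 ± 0.31, and Sumf1, the activator itself, by -0.01 ± 0.10. Galns, a sulfatase of keratan sulfate, and Sgsh, the heparan sulfamidase, lay within the negative controls and differed by -0.08 each.

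**Figure D2:**
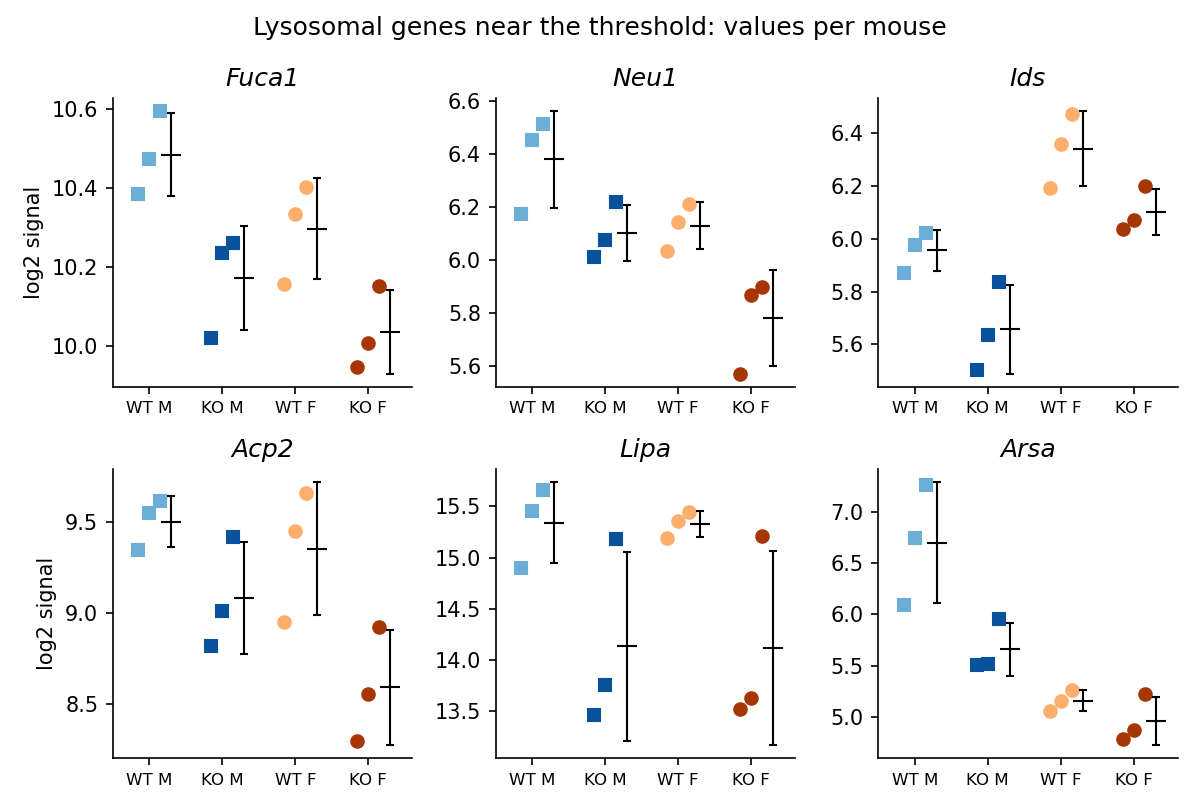
Log2 signal per mouse of 6 genes near the threshold, by genotype and letter; bars are the mean ± SD of 3 mice, and each panel has its own axis. Fuca1, Neu1, Ids and Acp2 passed the test and Lipa and Arsa did not; in Lipa 1 KO mouse of each letter sits at the WT level.

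Among the 7 genes for lipid breakdown 1 was higher and 0 were lower. Asah1, which splits ceramide into sphingosine and a fatty acid, measured 7.59, 7.68 and 7.68 in WT males and 7.72, 7.75 and 7.75 in WT females. It measured 7.83, 8.71 and 9.04 in KO males and 8.94, 9.0 and 10.26 in KO females. The WT mice were almost identical, and every KO mouse lay above them, KO male 39 by the smallest margin. The difference was 1.27 ± 0.25 (2.41-fold, limma adjusted p = 0.0120). It was 1.28 without WT females 25 and 27, but the adjusted p was then 0.0711. Without KO male 19 and WT female 38 it was 1.14, also not called (adjusted p = 0.0515).

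Lipa, the acid lipase that hydrolyses cholesteryl esters and triglycerides, did not pass the test at -1.21 ± 0.36 (adjusted p = 0.0642). Its WT values ran from 14.90 to 15.67, with a median of 15.40. KO males 19 and 39 measured 13.46 and 13.76 and KO females 13 and 69 measured 13.63 and 13.52, all below the WT range. KO male 18 and KO female 40 measured 15.19 and 15.21, inside it. Lipa was called after quantile normalization (adjusted p = 0.0116), median centring (0.0459), without the letter term (0.0493), with the filter on low signal (0.0257) and with array weights (0.0386). It was also called without KO female 40 (0.0151) or KO male 18 (0.0217), while the adjusted p was 0.0815 to 0.131 when another single mouse was left out.

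The remaining 5 lipid enzymes had no call and differences under 0.15 in size. They were Ppt1, which removes palmitate from proteins, at 0.13 ± 0.13, and the related thioesterase Ppt2 at -0.02 ± 0.06. Pla2g15, a phospholipase of acid pH, differed by -0.15 ± 0.12, Smpd1, the acid sphingomyelinase, by -0.12 ± 0.15, and Plbd2 by 0.01 ± 0.21. In Smpd1, Plbd2, Gaa and Hgsnat the highest KO mouse was male 19, at 8.41, 8.52, 9.57 and 11.82, and the lowest was female 40, at 7.52, 6.86, 8.14 and 10.01.

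Activator proteins present membrane lipids to the hydrolases. Both measured here had an unadjusted p under 0.05, as did 5997 of 19229 protein-coding genes, and 0 of 2 were called by limma. Psap, the precursor of the saposins, ranged from 14.38 to 16.61 in KO (median 15.11) and from 14.20 to 14.76 in WT (median 14.64). KO male 39 lay inside the WT range and the other 5 KO mice above it, and the difference was 0.66 ± 0.28 (adjusted p = 0.184). Gm2a, the activator of ganglioside GM2 breakdown, differed the other way, by -0.33 ± 0.13 (adjusted p = 0.142), and was called without WT male 17 (adjusted p = 0.0315).

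The phosphatases moved in opposite directions. Acp5, known as a product of osteoclasts and activated macrophages, measured 8.94, 9.44 and 9.54 in WT males and 8.73, 8.97 and 9.10 in WT females. It measured 9.47, 10.37 and 10.95 in KO males and 10.37, 10.54 and 11.04 in KO females. The females did not overlap, while KO male 39 lay between WT males 33 and 23. The difference was 1.34 ± 0.24 (2.53-fold, limma adjusted p = 0.0067), and without WT females 25 and 27 it was 1.26 with an adjusted p of 0.0556.

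Acp2, the broadly expressed lysosomal acid phosphatase, measured 9.34, 9.55 and 9.61 in WT males and 8.95, 9.45 and 9.66 in WT females. It measured 8.82, 9.01 and 9.42 in KO males and 8.30, 8.56 and 8.92 in KO females, so that the males overlapped and the females were only just separated. The difference was -0.59 ± 0.16 (limma adjusted p = 0.0399), lost in 9 of the 12 fits that left out 1 mouse (adjusted p 0.0196 to 0.0930). Dnase2a, which degrades DNA of engulfed nuclei, lay within the negative controls and differed by 0.10 ± 0.10.

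Among the 10 called genes, the highest and the lowest difference were both found in peptidases. Lgmn, which also cleaves cathepsins to their mature forms, measured 10.20, 10.26 and 10.86 in WT males and 10.61, 10.98 and 11.24 in WT females. It measured 11.68, 12.73 and 13.47 in KO males and 13.20, 13.40 and 15.31 in KO females. All KO mice lay above all WT mice, and the KO mice spread over more than 3 units where the WT mice spread over about 1. The difference was 2.61 ± 0.40 (6.09-fold, limma adjusted p = 0.0036) and stayed between 2.27 and 2.84 with any 1 mouse left out.

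Tpp1, which removes tripeptides from the start of proteins, measured 12.58, 12.88 and 12.88 in WT males and 12.34, 12.59 and 12.87 in WT females. It measured 11.47, 11.61 and 12.23 in KO males and 11.16, 11.29 and 11.50 in KO females. KO male 19 came nearest to the WT mice, and there was no overlap. The difference was -1.15 ± 0.14 (2.21-fold lower in KO, limma adjusted p = 0.0017). Scpep1, a serine carboxypeptidase, differed by -0.16 ± 0.12 (adjusted p = 0.481). Tpp1 and Lgmn, both soluble peptidases of the same organelle, were thus called in opposite directions in the same livers.

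**Figure D3:**
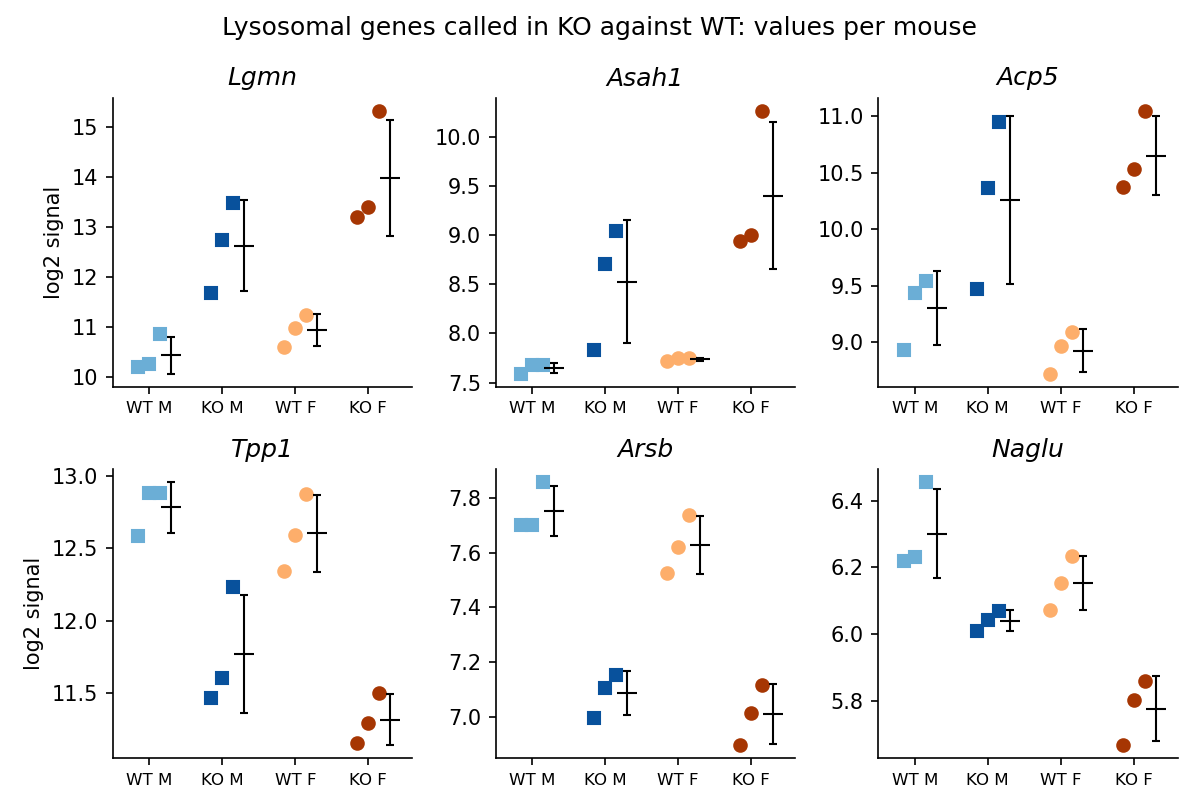
Log2 signal per mouse of the 6 genes called in each fit that left out 1 mouse, by genotype and letter; bars are the mean ± SD of 3 mice, and each panel has its own axis. Lgmn, Asah1 and Acp5 are higher in KO with a wide KO spread; Tpp1, Arsb and Naglu are lower.

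The mannose-6-phosphate steps showed no call: 0 of 4 genes by limma, of which 2 had an unadjusted p under 0.05. Gnptab, the phosphotransferase that begins the tag, measured 6.89 to 7.26 in KO and 6.84 to 7.19 in WT and differed by 0.04 ± 0.07. Nagpa, which uncovers the tag, differed by -0.22 ± 0.07 (adjusted p = 0.0638) within the negative control range. Nagpa was called after quantile normalization, median centring and array weighting, without WT female 25 or KO male 19, and without WT females 25 and 27 (-0.31, adjusted p = 0.0381), with adjusted p of 0.0326 to 0.0460 over these settings. Igf2r, the larger receptor, measured 6.61 to 7.24 in KO and 7.16 to 7.58 in WT and differed by -0.37 ± 0.12 (adjusted p = 0.0966); it was called after median centring (adjusted p = 0.0360) and with the filter on low signal (0.0395). M6pr, the smaller receptor, measured 11.60 to 12.95 in KO and 11.93 to 12.82 in WT and differed by -0.17 ± 0.22. KO female 40 was the highest of the KO mice for M6pr, as it was for 16 of the 38 genes.

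Within males 1 gene was called, Arsb at -0.67 (limma adjusted p = 0.0086), beside 1.44% of protein-coding genes. Within females 6 were called, beside 11.4% of protein-coding genes. Both shares include genes within the negative controls, and shares among genes of measurable signal were not computed within a letter. In females Lgmn, Acp5 and Asah1 were higher by 3.02, 1.72 and 1.66, and Tpp1, Arsb and Naglu were lower by -1.28, -0.62 and -0.38. The same 6 genes differed in males by 2.19, 0.96, 0.88, -1.01, -0.67 and -0.26, and for Tpp1 the adjusted p was 0.0514. All 10 genes called over both letters had the same sign in each, and 7 had the larger size in females, but no difference between the letters was called: 0 of 38 genes by limma, 1 with an unadjusted p under 0.05 (Arsa), beside 0.00152% of all features. Without WT females 25 and 27 the count within females was 2, both lower. Within males it was 2 when WT male 17, WT female 38, KO male 19 or KO female 40 was left out.

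Other genes of the same route were taken from lists of known function, drawn up with earlier results of these data known. Unless marked, the genes named from each list are those with the smallest unadjusted p in limma. Of 22 further lysosomal hydrolases 3 were higher and 3 lower, with a median of 0.01. Called were 27.3%, beside 9.75% of all transcript features and 36.7% of protein-coding genes with a mean above the average edge of the negative controls. Siae, which removes acetyl groups from sialic acid, was lower by -1.80 and Hyal2, a hyaluronidase, by -0.54. Pld4, an endolysosomal nuclease of immune cells, and Aoah, which deacylates bacterial lipopolysaccharide in phagocytes, were higher by 3.39 and 2.02. WT males for Pld4, both WT groups for Aoah and both KO groups for Hyal2 lay within the negative controls, so these sizes are not exact. Of 23 further sorting and retrieval genes 4 were higher and 9 lower (56.5% called), with a median of -0.17. The share was 36.7% over protein-coding genes with a mean above the average edge of the negative controls. Higher were Lrp1 at 1.45, Snx5 at 0.66, Sorl1 at 0.74 and Cln6 at 0.54, named here after their values were seen. Sorl1 and Cln6 lay within the negative controls in all groups. Lower genes included Ap1g1 at -0.91 and Ap1b1 at -0.41, subunits of the AP-1 adaptor that packs hydrolases into vesicles, Vps35 of the retromer at -0.75, which returns receptors to the Golgi, and Gnptg at -0.37, the partner subunit of Gnptab. Of 20 regulators of lysosomal genes and of mTORC1 on the lysosome, 0 were higher and 6 lower, with a median of -0.04. The share called was below the 36.7% of protein-coding genes with a mean above the average edge of the negative controls. Over all protein-coding genes 11.0% were called lower and 4.76% higher. Lamtor2 was among the 6 lower regulators, at -0.37. Lamtor3 was called at -0.22 over both letters, with 0.07 in males and -0.50 in females (interaction unadjusted p = 0.000105, adjusted p = 0.178). Rptor, at -0.35, lay within the negative controls in both KO groups, and Zkscan3, a repressor of lysosomal genes, at -0.26, in all 4 groups. Tfeb, named here after its values were seen, lay within the negative controls at 4.18 in KO and 4.21 in WT.

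Macrophage markers differed between the same arrays. Of the 29 listed, all measured, 20 were higher and 1 was lower (Cd163, by -1.74, with both KO groups within the negative controls), with a median of 1.34, and Marco was higher by 6.27; 6 of the 29 lay within the negative controls in all groups. Their average per mouse was 6.84, 6.46 and 6.19 in WT males 17, 23 and 33 and 6.50, 6.34 and 7.00 in WT females 25, 27 and 38. It was 8.66, 7.73 and 7.46 in KO males 18, 19 and 39 and 8.62, 10.28 and 8.51 in KO females 13, 40 and 69. The log2 of their summed signal ran from 12.17 to 13.54 in WT and from 14.33 to 18.79 in KO mice. KO female 40, highest for these markers, was also the highest mouse for Lgmn, Asah1, Acp5, Psap and Hexa, and KO male 39, lowest of the KO mice for them, was the lowest KO mouse for Lgmn, Asah1, Acp5 and Psap. These genes were picked from the 38. Among the KO mice, female 40 was the highest for 16 of the 38 genes and the lowest for 5. KO male 39 was the highest for 4 and the lowest for 15. Ranks were uneven among the WT mice too. There, female 25 was the highest for 4 and the lowest for 18, and female 38 the highest for 11 and the lowest for 0. Without KO female 40 the differences were 2.27 for Lgmn, 1.05 for Asah1 and 1.24 for Acp5, all still called. Neutrophil markers were higher for 9 of 14, with averages of 4.37 to 5.08 in WT, 5.37 to 8.10 in KO males and 7.25 to 7.67 in KO females. Of these 14, 7 lay within the negative controls in all groups, so the sizes are not exact. The share called was 72.4% for the macrophage and 64.3% for the neutrophil markers. It was 9.75% over all transcript features and 36.7% over protein-coding genes with a mean above the average edge of the negative controls. The part of these markers in the differences of the hydrolase genes was not tested. In whole liver, more cells of a type and more RNA per cell cannot be told apart.

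**Figure D4:**
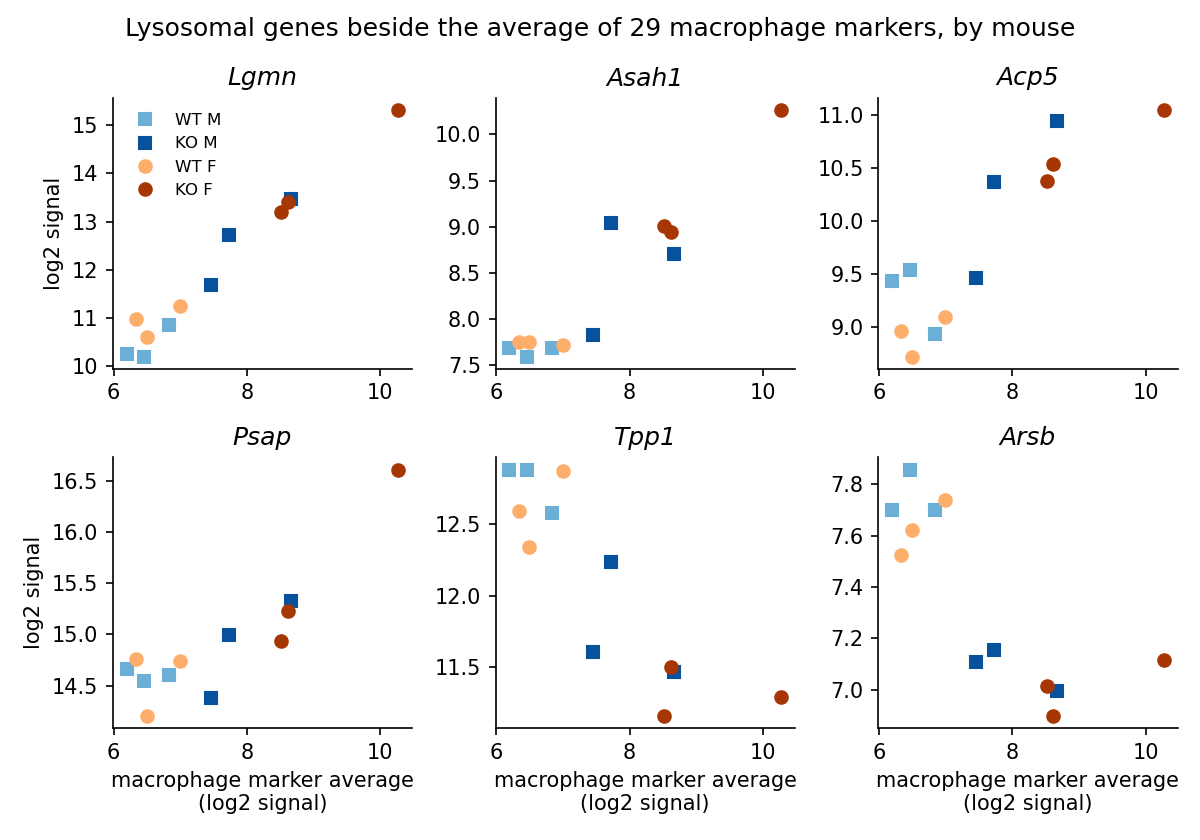
Log2 signal of 6 genes (vertical axes) against the average log2 signal of 29 macrophage markers (horizontal axes), 1 point per mouse. KO mice lie to the right of WT mice in each panel; KO female 40, at 10.28, is the rightmost point and the highest for Lgmn, Asah1, Acp5 and Psap, while for Tpp1 and Arsb the KO mice lie low over the whole horizontal range they cover.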

How the data were processed

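Total liver RNA of 12 mice was fragmented, biotinylated and hybridised to Affymetrix arrays, per the labels' protocols. The values are log2 signals deposited by the authors. The submitters' processing notes name Transcriptome Analysis Console, with no version; the normalization and genome build behind the values were not given in the sources used here. All arrays end at 19.93, above the range of a 16-bit scanner, so a fold holds for the deposited scale only; none of the 38 genes reaches that value. Of 72688 features, 6732 controls were left out of tests. Features with 1 symbol (31258) were named from a platform annotation table, in which 1492 had several symbols and 33206 none, with symbols updated through RefSeq.

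A model of 4 group means was fitted with limma 3.58.1 in R 4.3.3 (8 residual degrees of freedom) and tested on simulated data. Contrasts were KO minus WT over both letters, within each, and their difference. For control features, genotypes were exchanged within each letter (exact permutation, two-sided). The number of arrays limits the precision. Title numbers differ between all mice, which are taken as separate animals; array batches are not given.

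Members and lists were chosen with earlier results of these data known. Named are all members, Slc29a3 and up to 4 genes per list with the smallest unadjusted p; others are marked. Lists of other hydrolases, sorting genes, regulators, macrophage, neutrophil, hepatocyte and pancreatic genes are reported with the members. Endothelial markers gave 3 higher and 2 lower of 9 (55.6% called), and 8 had an unadjusted p under 0.05 in limma. Of those with the smallest p, Pecam1 (1.14) and Cdh5 (0.76) were higher and Kdr (-0.63) and Clec4g (-1.46) lower. Lymphocyte markers gave 1 higher of 10 (10.0% called). Over all transcript features 9.75% were called. Stellate (9) and cholangiocyte (5) markers gave no call, with 0 and 1 at an unadjusted p under 0.05 in limma. Alternatives were quantile normalization, median centring, no letter term, the poly-A level as covariate, a filter on low signal, feature averaging, array weights, each mouse left out, KO male 19 and WT female 38 left out together and, chosen after seeing the data, WT females 25 and 27 left out.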

Additional observations from a re-analysis of the deposited data

Results flagged for a closer look

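In 6 of 76 groups examined (38 genes in the 6 mice of each genotype), 1 mouse lay far from the other 5 by Dixon's test, which chance alone gives in about 1 group in 20. WT female 25, 1 of the mice with pancreatic transcripts, was the lowest WT mouse for Hgsnat at 9.90 (next 10.92) and for Plbd2 at 6.90 (next 7.52), and the highest for Aga at 7.31 (next 7.03). WT female 27, the other such mouse, was the lowest for Hexa at 9.27 (next 9.77). WT female 38 was the highest for M6pr at 12.82 (next 12.20), and KO male 19 was the highest KO mouse for Idua at 5.87 (next 5.55). None of these 6 genes was called between genotypes.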

How the results depend on the processing

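Interaction calls stayed at 0 in all alternatives. Over both letters 10 genes were called as reported, 6 to 11 with 1 mouse left out, 6 without KO male 19 and WT female 38, 6 without WT females 25 and 27, and 0 with the poly-A covariate; the other settings gave 7 to 14. In females the count was 6, 4 to 6 with 1 mouse left out, 2 without either pair of arrays and 0 with the poly-A covariate. In males it was 1, 1 to 2 with 1 mouse left out, 2 after quantile normalization, median centring, array weights or leaving out KO male 19 and WT female 38, 3 with the filter on low signal, and 0 with the poly-A covariate or features averaged. Features called numbered 6432, and 4553 to 6599 with 1 mouse left out, but 3 with the poly-A covariate; as reported 3482 were higher and 2950 lower, after quantile normalization 2555 and 4091, and after median centring 2538 and 4001. Under the poly-A covariate, which itself differs between genotypes, these genes changed sign: Gaa 0.23, Gla 0.0614, Idua 0.23, Ids 0.0682, Galns 0.10, Sgsh 0.56, Sumf1 0.48, Smpd1 0.66, Ppt2 0.0364, Gm2a 0.0892, Scpep1 0.33 and M6pr 0.27. Of the 10 called genes Ids was the only one to do so in any alternative. Uncalled genes near 0 also turned. Hgsnat was -0.0052 after median centring, -0.0547 without KO male 19 and WT female 38, -0.11 without WT females 25 and 27, and -0.14 to 0.25 with 1 mouse left out. Plbd2 was -0.0249 after quantile normalization, -0.0611 after median centring, -0.0073 with array weights, -0.126 and -0.0808 without those pairs, and -0.17 to 0.12 with 1 mouse left out. Gnptab was -0.0076 after quantile normalization, -0.0289 after median centring and -0.0138 to 0.0798 with 1 mouse left out. Ppt2 was 0.0326 without KO male 19 and WT female 38 and -0.0408 to 0.0327 with 1 mouse left out, and Sumf1 -0.0773 to 0.0387. The cause of these changes was not tested, other than that fewer arrays enter the fits that leave mice out. Quantile normalization moved the median of all features from 0.05 to -0.01. A fit with 1 WT female assumes that this mouse varies like the other groups. No paired analysis was possible because the title numbers are shared by no 2 groups. Signal over background limits the 8 genes that lie within the negative controls in all groups. It also limits the 6 that do so in some groups, among them the called genes Neu1, Naglu and Ids. These 3 were among the 13 genes that the filter on low signal removed. With that filter 25 genes were tested, and 9 of them were called.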
